A study of Homo sapiens with 24 samples.

Results

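The 10 genes described here were the rows of the count files with the symbols *PDK1*, *PDK2*, *PDK3*, *PDK4*, *BCKDK*, *PDP1*, *PDP2*, *PDHA1*, *PDHB* and *DLAT*, out of 23106 gene symbols. They encode kinases, phosphatases and subunits of the pyruvate dehydrogenase complex, with 1 kinase of a related complex. All 10 were found in each library and all 10 passed the filter on low counts in each cell line. Polyadenylated RNA was sequenced from 4 established cancer cell lines, with 3 libraries in each of 8 groups (24 libraries). A549 is a lung, HCT116 a colorectal, PC3 a prostate and T47D a breast cancer line. Each was kept at 21% oxygen (normoxia) or at 0.5% oxygen for 16 h (hypoxia). The medium went with the line, F12K for A549 and PC3, McCoy's 5a for HCT116 and DMEM for T47D, so that line and medium cannot be told apart except between A549 and PC3 cells, which shared a medium. Library totals ranged from 22698584 to 62850747 counts, with a median of 56109796. The labels do not say whether the replicates were separate cultures, so p values measure the spread between these libraries, which may be technical. The libraries of a group correlated closely, and in T47D cells replicate 3 of each state lay farthest from its group, with a median absolute deviation over genes of 0.25 in hypoxia and 0.22 in normoxia on the log2 scale. Normoxic replicate 2 of HCT116 cells lay nearly as far from its group, at 0.21.

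The pyruvate dehydrogenase complex, in the mitochondrial matrix, turns pyruvate from glycolysis into acetyl-CoA for the citric acid cycle. Pyruvate dehydrogenase kinases (PDK1 to PDK4) phosphorylate its E1 alpha subunit, PDHA1, and switch the complex off, and the phosphatases PDP1 and PDP2 remove the phosphate and switch it on. BCKDK belongs to the same kinase family and acts on the complex that breaks down branched-chain keto acids. *PDK1* is a known target of the hypoxia-inducible factors (HIFs), and its induction is known to divert pyruvate to lactate when oxygen is low.

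In the promoters of *PDK1*, *PDK3* and *BCKDK*, which are shown because these 3 genes had the most widespread increases below, the core of the hypoxia response element was looked for. The letters searched were ACGTG or GCGTG on either strand, so that CACGT and CACGC mark a match on the strand opposite to the gene. A match on both strands at CACGTG would also be an E-box, and it was counted on each strand separately. The 120 bases before the transcription start are given 5′ to 3′ on the strand of the gene, from RefSeq on GRCh38.p14, with the matches in capitals.
PDK1, chr2:172555970-172556089, plus strand: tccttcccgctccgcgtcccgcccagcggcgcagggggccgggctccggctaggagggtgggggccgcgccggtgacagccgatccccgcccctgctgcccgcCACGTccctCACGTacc
PDK3, chrX:24465166-24465285, plus strand: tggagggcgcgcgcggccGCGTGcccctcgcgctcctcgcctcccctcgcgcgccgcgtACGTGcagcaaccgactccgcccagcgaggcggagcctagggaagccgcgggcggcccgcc
BCKDK, chr16:31108266-31108385, plus strand: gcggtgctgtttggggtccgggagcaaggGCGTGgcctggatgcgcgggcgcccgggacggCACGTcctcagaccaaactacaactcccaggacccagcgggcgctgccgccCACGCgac

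The *PDK1* and *PDK3* windows held 2 matches each and the *BCKDK* window held 3. Of all 35116 RefSeq promoter windows of this length, 27.52% held at least 1 match. The printed *PDK1* window belongs to 1 of 2 RefSeq starts, and the window of the other start held 0 matches. Over 250 bases before the start, where 43.21% of windows held a match, *PDHB* held 6, *BCKDK* held 4, *PDP2*, *PDHA1* and *DLAT* held 3 each and *PDK4* held 0. *PDK2* has 3 listed starts, of which 1 held 3 matches and the others held 0. In *PDHB*, *PDP2* and *PDK2*, 2 of the matches were the 2 strands of 1 CACGTG. RefSeq windows were matched for 9 of the 10 genes. A match is a description of letters and not a binding site, and matches were found before genes that did not respond as well as before genes that did.

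The oxygen labels were first checked on 5 genes known to respond to hypoxia, *CA9*, *EGLN3*, *NDRG1*, *ADM* and *VEGFA*, and all 5 were upregulated in each of the 4 lines. *EGLN3*, a HIF prolyl hydroxylase, had a log2 fold change of 5.15 in A549, 3.28 in HCT116, 1.503 in PC3 and 3.98 in T47D cells. *VEGFA*, an angiogenic growth factor, had a log2 fold change of 1.23 in A549, 1.55 in HCT116, 0.56 in PC3 and 1.96 in T47D cells. Each of the 5 genes had its smallest log2 fold change in PC3 cells, with *CA9* rising there only from 1.198 ± 0.0744 to 4.24 ± 0.574 CPM (counts scaled to a fixed library total, after TMM normalization, mean ± SD, n = 3).

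The lines were also checked against markers of their tissue. T47D cells in normoxia had 174 ± 11.4 CPM of *ESR1*, the estrogen receptor, against at most 2.48 CPM in any library of the other lines. PC3 cells had 0 counts of the prostate marker *KLK3* in all 6 libraries. A549 cells had at most 0.0828 CPM of the lung factor *NKX2-1* and 0.0739 CPM of surfactant gene *SFTPB*, so these lung markers were near 0. A further lung marker, *NAPSA*, was at 0.452 ± 0.304 CPM in normoxic A549 and at 1.04 ± 0.284 CPM in normoxic HCT116 cells. HCT116 cells in normoxia had 11.8 ± 1.58 CPM of the intestinal factor *CDX2* but at most 0.133 CPM of *CDH17*, another intestinal marker, which was at 15.1 ± 4.66 CPM in normoxic A549 cells. The blood and endothelial markers *PTPRC*, *PECAM1* and *CDH5* stayed at or below 2.75 CPM in each library.

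Changes in hypoxia were tested in each line with edgeR. A gene was called where it changed more than 1.2-fold with p, after Benjamini-Hochberg adjustment, under 0.05. In A549 cells, 5 of the 10 genes were upregulated and 1 was downregulated, against 17.6% and 17.8% of all genes tested. In HCT116 cells, 4 were upregulated and 2 downregulated, against 23.3% and 27.0%. In PC3 cells, 2 were upregulated and 0 downregulated, against 16.6% and 15.7%. In T47D cells, 3 were upregulated and 0 downregulated, against 6.55% and 6.69%. The labels do not state a pairing, but the replicate numbers were taken to pair the T47D libraries, from weak correlations between same-numbered libraries. With the number as a block, 5 were upregulated there (*PDK2* and *PDK4* added) and 0 downregulated, against 1281 and 1485 of 14085 genes. In PC3 and T47D cells the count of genes that were lower at an unadjusted p under 0.05 was also 0 with edgeR, and DESeq2 called 0 lower. The calls fell unevenly by role. Summed over the lines, 13 of the 14 increases were in kinases, and of the 3 decreases 2 were in phosphatases and 1 in a subunit. A gene called in several lines counts in each of them here, and kinases are 5 of the 10 genes. Taken as a median, the 10 genes had log2 fold changes of 0.15 in A549, 0.58 in HCT116, 0.07 in PC3 and 0.38 in T47D cells, against -0.01, -0.03, -0.01 and -0.01 for all genes tested. Of the 10 genes, complete separation of the hypoxic from the normoxic libraries was seen for 7 in A549, 7 in HCT116, 3 in PC3 and 5 in T47D cells, against 47.8%, 60.2%, 51.2% and 31.8% of all genes tested. In bulk RNA, a change in the number of transcripts per cell and a change in the fraction of cells that carry them cannot be told apart.

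*PDK1* (GRCh37, chromosome 2, 173420101 to 173473397, plus strand), the kinase best known as a HIF target, was upregulated in 3 of the 4 lines. In A549 cells it was at 5.65, 8.60 and 6.75 CPM in normoxia and at 41.4, 44.5 and 44.5 CPM in hypoxia. In HCT116 cells it was at 15.3, 24.4 and 24.3 CPM in normoxia and at 71.9, 106 and 80.7 CPM in hypoxia. In T47D cells it was at 16.4, 11.4 and 11.3 CPM in normoxia and at 142, 142 and 124 CPM in hypoxia. In these lines each hypoxic library was above each normoxic library. In PC3 cells *PDK1* was at 59.5, 50.2 and 68.9 CPM in normoxia and at 69.1, 62.8 and 64.5 CPM in hypoxia, so that the groups overlapped, and the normoxic mean of 59.5 CPM was above the hypoxic mean of A549 cells (43.4 CPM). The log2 fold change was 2.64 ± 0.15 (SE, adjusted p = 4.758e-07) in A549, 1.99 ± 0.23 (adjusted p = 9.244e-05) in HCT116, 3.35 ± 0.23 (adjusted p = 2.727e-06) in T47D and 0.11 ± 0.12 (adjusted p = 0.496) in PC3 cells, by edgeR's quasi-likelihood test. *PDK1* rose 10.2-fold in T47D, 6.22-fold in A549 and 3.96-fold in HCT116 cells. Of genes tested in all lines, 9.13% were upregulated in at least 3.

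**Figure D1:**
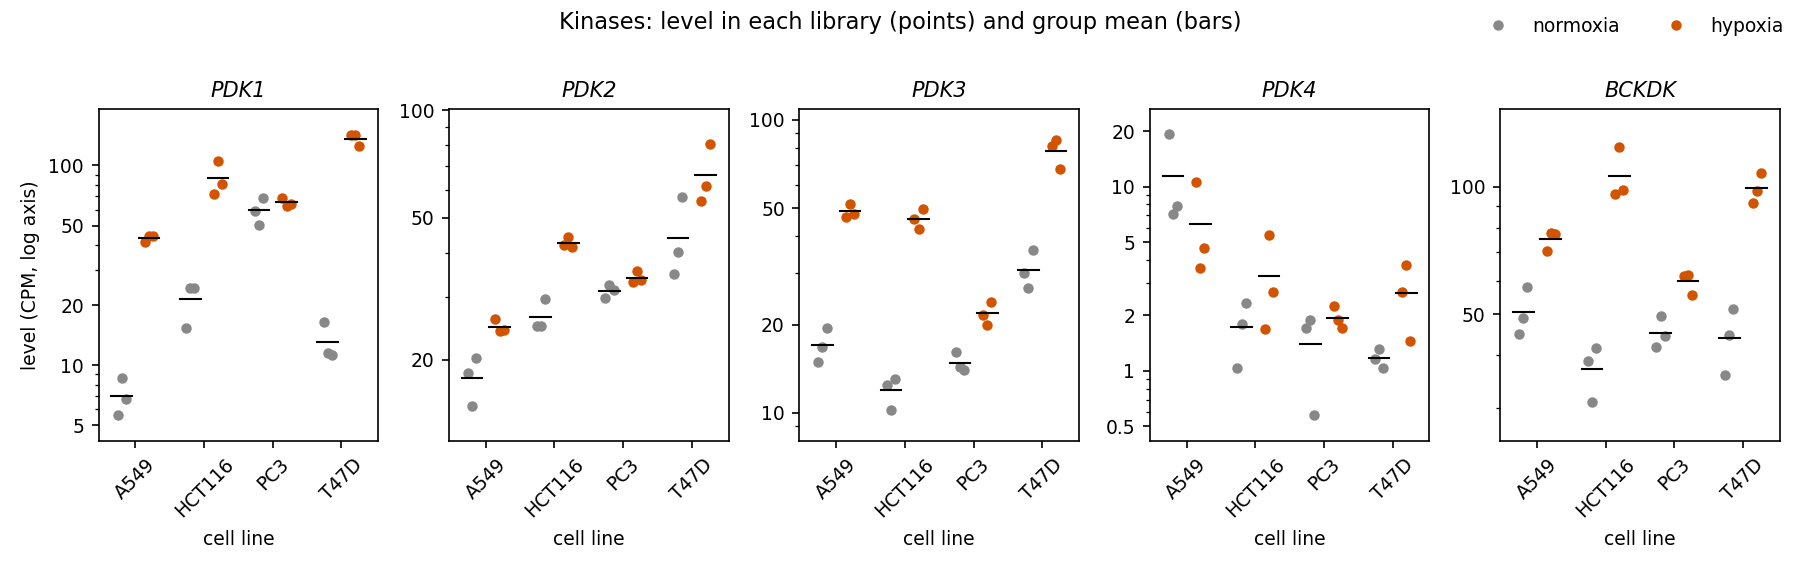
Level of each of the 5 kinases in each library (points, CPM on a log axis) and the mean of the 3 libraries (black bars), in normoxia (grey) and hypoxia (orange), by cell line. *PDK1* rises in A549, HCT116 and T47D cells but sits between 50.2 and 69.1 CPM in all 6 PC3 libraries, while *PDK3* and *BCKDK* rise in all 4 lines.

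*PDK3* (chromosome X, 24483361 to 24568583, plus strand), which encodes another isoform of the kinase, was upregulated in all 4 lines. In A549 cells it was at 14.9, 16.7 and 19.5 CPM in normoxia and at 46.6, 51.8 and 47.7 CPM in hypoxia. In HCT116 cells it was at 12.4, 10.3 and 13.0 CPM in normoxia and at 45.8, 42.4 and 49.6 CPM in hypoxia. Both groups were well separated in these 2 lines. In PC3 cells *PDK3* was at 16.1, 14.4 and 13.9 CPM in normoxia and at 21.6, 19.96 and 23.95 CPM in hypoxia. In T47D cells it was at 29.9, 26.7 and 36.0 CPM in normoxia and at 81.5, 85.2 and 67.9 CPM in hypoxia. Thus the hypoxic libraries were above the normoxic ones in each line, with the narrowest gap in PC3 cells. The log2 fold change was 1.52 ± 0.12 (adjusted p = 7.567e-06) in A549, 1.93 ± 0.19 (adjusted p = 3.410e-05) in HCT116, 0.54 ± 0.12 (adjusted p = 0.00863) in PC3 and 1.32 ± 0.20 (adjusted p = 0.00140) in T47D cells by edgeR.

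*BCKDK* (chromosome 16, 31117428 to 31124112, plus strand), the kinase of the branched-chain complex, was also called upregulated in all 4 lines. In HCT116 cells it was at 38.9, 31.0 and 41.5 CPM in normoxia and at 95.8, 124 and 98.4 CPM in hypoxia. In T47D cells it was at 35.8, 44.7 and 51.3 CPM in normoxia and at 91.6, 97.8 and 108 CPM in hypoxia. Each hypoxic library was above each normoxic library in both lines. In A549 cells *BCKDK* was at 44.8, 48.9 and 57.9 CPM in normoxia and at 70.4, 77.8 and 77.4 CPM in hypoxia. In PC3 cells it was at 41.7, 49.6 and 44.4 CPM in normoxia and at 61.7, 62.0 and 55.5 CPM in hypoxia. The groups did not overlap in either line, but the shift was smaller. The log2 fold change was 0.58 ± 0.12 (adjusted p = 0.00351) in A549, 1.49 ± 0.19 (adjusted p = 1.309e-04) in HCT116, 0.38 ± 0.10 (adjusted p = 0.0166) in PC3 and 1.15 ± 0.20 (adjusted p = 0.00363) in T47D cells by edgeR. The call in PC3 cells was lost with a correction for GC content and length (log2 fold change 0.20, adjusted p = 0.0990), in one edgeR fit of all 24 libraries (adjusted p = 0.0797) and without hypoxic replicate 1, hypoxic replicate 2 or normoxic replicate 1 (adjusted p between 0.0593 and 0.0765). The call in T47D cells was lost without normoxic replicate 1 (adjusted p = 0.0533).

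Of all 11734 genes tested in each of the 4 lines, 2.58% (303 genes) were upregulated in all 4, and *PDK3* and *BCKDK* were 2 of the 10 genes described here.

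*PDK2* (chromosome 17, 48172101 to 48189516, plus strand), which encodes a widely expressed isoform, changed less. In A549 cells it was at 18.4, 14.9 and 20.2 CPM in normoxia and at 26.0, 24.1 and 24.3 CPM in hypoxia. In HCT116 cells it was at 24.9, 24.9 and 29.6 CPM in normoxia and at 41.9, 44.2 and 41.5 CPM in hypoxia. The hypoxic libraries were higher without overlap in both lines, and *PDK2* was called upregulated in each, with a log2 fold change of 0.48 ± 0.13 (edgeR adjusted p = 0.0145) and 0.66 ± 0.17 (edgeR adjusted p = 0.00660). In T47D cells it was at 34.9, 40.1 and 57.1 CPM in normoxia and at 55.8, 61.4 and 80.7 CPM in hypoxia, with the highest library of each group being replicate 3. The log2 fold change there was 0.56 ± 0.22 and did not pass (edgeR adjusted p = 0.107), whereas with the replicate number as a block it was 0.57 and passed (edgeR adjusted p = 0.0400). In PC3 cells *PDK2* was between 29.9 and 35.6 CPM without overlap of the groups, with a log2 fold change of 0.10 ± 0.09 (edgeR adjusted p = 0.403). The longest annotated *PDK2* transcript is rich in G and C (59.7% of its bases). With a correction for GC content and length, the log2 fold change of *PDK2* was 0.29 (edgeR adjusted p = 0.0824) in A549 cells. It was 0.20 (edgeR adjusted p = 0.330) in HCT116 cells, so that neither call held. The call in A549 cells was also lost without normoxic replicate 2 (edgeR adjusted p = 0.0739), and *PDK2* passed in T47D cells without normoxic replicate 3 (edgeR adjusted p = 0.0433). With the block and this correction together, *PDK2* did not pass in T47D cells (log2 fold change 0.34, edgeR adjusted p = 0.0779).

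*PDK4* (chromosome 7, 95212811 to 95225828, minus strand), an isoform known for its induction by fasting and fatty acids, was scarce, and its libraries spread widely. In A549 cells it was at 19.2, 7.07 and 7.82 CPM in normoxia and at 10.6, 3.61 and 4.66 CPM in hypoxia, with replicate 1 the highest of each group. In the other 3 lines it was between 0.574 and 5.43 CPM in all 18 libraries, which correspond to 19 to 302 counts. It was called in no line by edgeR, with log2 fold changes of -0.83 ± 0.41 in A549, 0.90 ± 0.43 in HCT116, 0.45 ± 0.38 in PC3 and 1.13 ± 0.40 in T47D cells and adjusted p values between 0.0753 and 0.378. An unadjusted p under 0.05 was reached in 1 line, T47D, which was also the 1 line in which DESeq2 called *PDK4*. In T47D cells *PDK4* passed with the replicate number as a block (log2 fold change 1.05, edgeR adjusted p = 0.0422) and without hypoxic replicate 3 (1.44, edgeR adjusted p = 0.0119). Without hypoxic replicate 1 it passed in A549 (-1.44, edgeR adjusted p = 0.0147) and in HCT116 cells (1.27, edgeR adjusted p = 0.0193). Other omissions moved it the other way, to -0.24 in A549 cells without normoxic replicate 1, to 0.33 in HCT116 and 0.79 in T47D cells without hypoxic replicate 2 and to 0.08 in PC3 cells without normoxic replicate 3. With the correction for GC content and length, *PDK4* passed in HCT116 (1.46, edgeR adjusted p = 0.0151) and T47D cells (1.42, edgeR adjusted p = 0.0414).

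**Figure D2:**
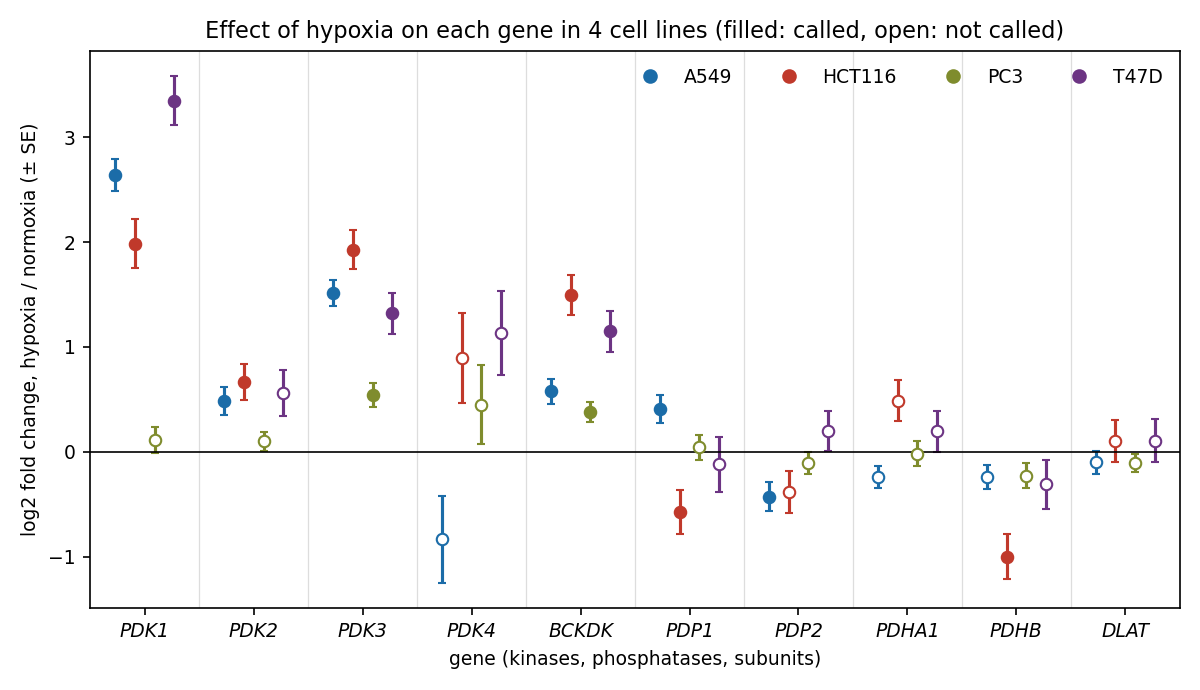
Log2 fold change of each gene in hypoxia relative to normoxia (points, with bars for the standard error of the edgeR fit) in the 4 cell lines, ordered as kinases, phosphatases and subunits. Filled points were called and open points were not. The kinases *PDK1*, *PDK3* and *BCKDK* lie highest in A549, HCT116 and T47D cells, whereas in PC3 cells *PDK1* is at 0.11, and *PDHB* in HCT116 cells lies lowest at -0.998.

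The phosphatases did not move together. *PDP1* (chromosome 8, 94870035 to 94938296, plus strand), the main phosphatase of the complex, was at 1344, 1430.3 and 1393 CPM in normoxia and at 987, 947 and 912 CPM in hypoxia in HCT116 cells. It was called downregulated there, with a log2 fold change of -0.57 ± 0.21 (edgeR adjusted p = 0.0341). In A549 cells it was at 11.8, 12.98 and 12.02 CPM in normoxia and at 14.98, 15.3 and 18.4 CPM in hypoxia, and was called upregulated, with a log2 fold change of 0.41 ± 0.13 (edgeR adjusted p = 0.0298). The groups did not overlap in either line, but each call was lost when any library but 1 of its line was left out. The exception was hypoxic replicate 1 in A549 and normoxic replicate 2 in HCT116 cells. Without one of the other 5, the edgeR adjusted p was between 0.0530 and 0.101 in A549 and between 0.0593 and 0.219 in HCT116 cells. With the correction for GC content and length, the log2 fold change in HCT116 cells was -0.29 (edgeR adjusted p = 0.218). In PC3 and T47D cells the groups overlapped, with log2 fold changes of 0.04 ± 0.12 and -0.12 ± 0.26.

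*PDP2* (chromosome 16, 66912492 to 66929657, plus strand), the second phosphatase, was at 21.2, 19.0 and 19.6 CPM in normoxia and at 17.8, 13.1 and 13.4 CPM in hypoxia in A549 cells. It was called downregulated there, with a log2 fold change of -0.43 ± 0.14 (edgeR adjusted p = 0.0358), and this call too was lost without any library but hypoxic replicate 1 (edgeR adjusted p between 0.0576 and 0.156). It was not called in the other lines, where log2 fold changes were -0.38 ± 0.20 in HCT116, -0.11 ± 0.10 in PC3 and 0.20 ± 0.19 in T47D cells. With the correction for GC content and length it passed in HCT116 cells (-0.66, edgeR adjusted p = 0.0136).

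Of the subunits, *PDHB* in HCT116 cells was the one called by edgeR. *PDHB* (chromosome 3, 58413357 to 58419584, minus strand) encodes E1 beta, the partner of PDHA1. In HCT116 cells it was at 91.8, 150.3 and 122 CPM in normoxia and at 59.97, 61.5 and 64.5 CPM in hypoxia. The hypoxic libraries were close together and below each normoxic library, and the log2 fold change was -0.998 ± 0.21 (edgeR adjusted p = 0.00202). *PDHB* was not called in A549, PC3 or T47D cells, where log2 fold changes were -0.24 ± 0.11, -0.23 ± 0.12 and -0.31 ± 0.23. It passed in A549 cells without normoxic replicate 3 (edgeR adjusted p = 0.0324) and in PC3 cells without normoxic replicate 2 (edgeR adjusted p = 0.0289). Over all omissions of 1 library its log2 fold change ranged from -1.11 to -0.73 in HCT116 cells, where it remained called and the smallest change was without normoxic replicate 2, from -0.32 to -0.17 in A549, from -0.34 to -0.10 in PC3 and from -0.54 to -0.17 in T47D cells.

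*PDHA1* (chromosome X, 19362011 to 19379836, plus strand), the subunit that the kinases phosphorylate, was at 53.3, 41.7 and 67.7 CPM in normoxia and at 81.4, 77.1 and 72.2 CPM in hypoxia in HCT116 cells. The groups did not overlap, with a log2 fold change of 0.49 ± 0.20 that narrowly missed the threshold (edgeR adjusted p = 0.0537) and passed it with DESeq2 (log2 fold change 0.53, adjusted p = 0.0313). It also passed with RLE size factors, with no filter, with a mean count of at least 50, in one fit of all libraries (0.60, edgeR adjusted p = 0.00382), with the replicate block, with the correction for GC content and length and without normoxic replicate 3. In that line the 2 E1 subunits thus had log2 fold changes of opposite sign. In A549 cells *PDHA1* was at 137, 124 and 145 CPM in normoxia and at 116, 111 and 116 CPM in hypoxia, with a log2 fold change of -0.24 ± 0.10 (edgeR adjusted p = 0.0915). *PDHA1* had log2 fold changes of -0.02 ± 0.12 in PC3 and 0.19 ± 0.20 in T47D cells, with overlapping groups. *DLAT* (chromosome 11, 111896132 to 111935128, plus strand), the E2 subunit that carries the lipoyl arm, was called in no line, and its log2 fold changes were between -0.11 and 0.11. An unadjusted p under 0.05 with edgeR and a DESeq2 call were each reached by *DLAT* in 0 of 4 lines.

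**Figure D3:**
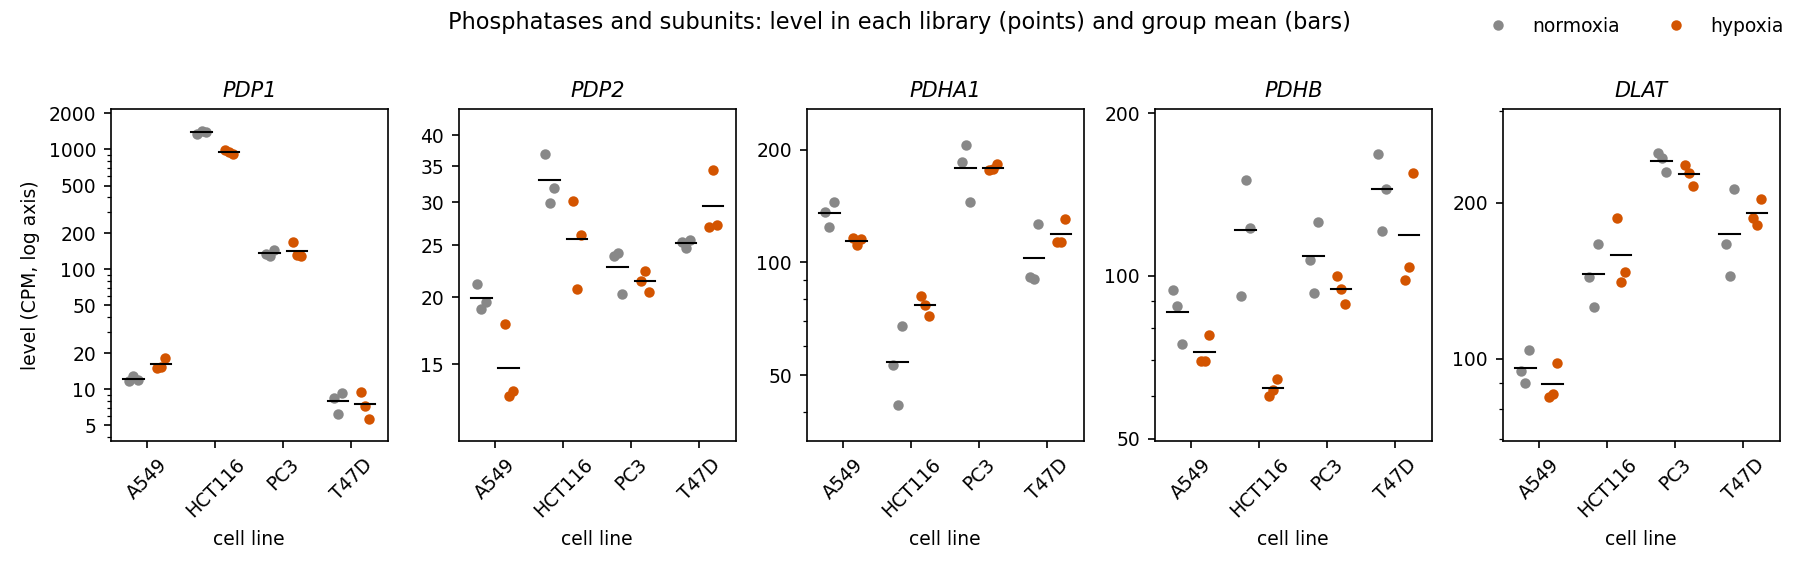
Level of the 2 phosphatases and 3 subunits in each library (points, CPM on a log axis) and the mean of the 3 libraries (black bars), in normoxia (grey) and hypoxia (orange), by cell line. *PDP1* spans from 5.66 CPM in a T47D library to 1430.3 CPM in an HCT116 library, and the hypoxic *PDHB* libraries of HCT116 cells lie below the normoxic ones.

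Exons of *PDK2* overlap those of *SAMD14* on the opposite strand by 2113 bases, exons of *PDHA1* overlap *MAP3K15* by 956 bases and exons of *DLAT* overlap *PIH1D2* by 1004 bases. The paper's methods name a ScriptSeq or a NEBNext directional kit for its libraries, without saying which served which line. The strand setting of the count is not given in the sources used here, so reads in these stretches are of uncertain origin.

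Over the 4 lines together, the mean difference in log2 CPM between hypoxia and normoxia was tested gene by gene with an exact permutation of the oxygen state within each line (two-sided, 12 libraries against 12). *PDK3* had a mean difference of 1.34 and *BCKDK* of 0.92, each with an exact permutation p = 1.250e-05, the smallest the test can give (adjusted p = 1.005e-04 over 11734 genes). *PDK1* had a mean difference of 2.054 (adjusted p = 2.372e-04 by permutation) and *PDK2* of 0.47 (adjusted p = 1.932e-04 by permutation). *PDHB* was the 1 gene of the 10 with a lower mean past the threshold, at -0.42 (adjusted p = 0.00302 by permutation), and its mean was lower in 4 of 4 lines. *PDK4*, *PDP1*, *PDP2*, *PDHA1* and *DLAT* did not pass. In the same test, 31.8% of all genes rose and 32.2% fell.

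Whether the effect of hypoxia differed between the lines was tested as an interaction in one edgeR fit of all 24 libraries. *PDK1* (adjusted p = 3.492e-07), *PDK3* (adjusted p = 5.503e-04) and *BCKDK* (adjusted p = 0.00140) passed, which is 3 of 10 genes against 18.3% of all genes tested. The *PDK1* response was smaller in PC3 than in A549 cells by 2.47 ± 0.28 on the log2 scale (adjusted p = 1.395e-05), than in HCT116 cells by 1.94 ± 0.27 (adjusted p = 1.198e-04) and than in T47D cells by 3.27 ± 0.28 (adjusted p = 7.286e-08). It was also smaller in HCT116 than in T47D cells by 1.33 ± 0.27 (adjusted p = 0.00445). *PDK1* in A549 cells did not differ past the threshold from HCT116 (difference 0.54 ± 0.27) or T47D cells (difference -0.80 ± 0.28). *PDK3* rose less in PC3 cells than in A549 (by 0.93 ± 0.21), HCT116 (by 1.45 ± 0.21) and T47D cells (by 0.81 ± 0.21), with adjusted p values of 0.0320, 1.606e-04 and 0.0401. *BCKDK* rose more in HCT116 than in A549 cells (by 1.03 ± 0.21, adjusted p = 0.00410) and PC3 cells (by 1.18 ± 0.21, adjusted p = 0.00126), and more in T47D than in PC3 cells (by 0.80 ± 0.21, adjusted p = 0.0477). The difference in response between PC3 and A549 cells passed for 0.758% of all genes, that between PC3 and T47D cells for 2.25% and that between PC3 and HCT116 cells for 14.9%. For A549 and T47D cells it passed for 2.11% and for HCT116 and T47D cells for 9.07%. The smaller responses of *CA9*, *EGLN3*, *NDRG1*, *ADM* and *VEGFA* in PC3 cells, given above, went the same way, and their part in this result was not tested.

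The interaction did not pass for *PDHB* (adjusted p = 0.104), *PDHA1* (adjusted p = 0.0533) or *PDP1* (adjusted p = 0.0599), although for *PDP1* the pair of A549 and HCT116 cells differed by 0.87 ± 0.24 (adjusted p = 0.0179), as it did for 16.7% of all genes. For *PDHA1* the same pair differed too, by -0.83 ± 0.23 (adjusted p = 0.0181). DESeq2 passed the interaction of all 3 of these genes and of *PDP2*, and the replicate block that of *PDHA1*, *PDP2* and *PDK4*. The *PDP1* interaction also passed with RLE size factors, with no filter, with a mean count of at least 50 and without any 1 of the 6 T47D libraries, the 3 hypoxic PC3 libraries or normoxic replicate 3 of PC3 cells. Without any single library the count of genes that passed was between 3 and 5. Without replicate 1 of all 8 groups it was 2 (*PDK1* and *BCKDK*), and without replicate 2 of all 8 groups it was 1 (*PDK1*). Without replicate 3 of all 8 groups it was 4 (*PDK1*, *PDK3*, *BCKDK* and *PDHA1*). Over all genes the calls fell from 2940 of 16089 to 636 of 16155, 165 of 16105 and 2478 of 16166 in the same order.

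In normoxia the level of 9 of the 10 genes differed between the lines, against 93.8% of all genes tested, so that a difference as such was the rule. By pairs, 65.0% of all genes differed between A549 and HCT116, 60.5% between A549 and PC3, 67.7% between A549 and T47D, 66.0% between HCT116 and PC3, 69.0% between HCT116 and T47D and 68.1% between PC3 and T47D cells. *PDP1* had by far the widest range of the 10. Its mean was 1389 ± 43.4 CPM in HCT116, 137 ± 8.38 in PC3, 12.3 ± 0.630 in A549 and 8.01 ± 1.63 in T47D cells, and each neighbouring pair in this order differed (adjusted p between 2.453e-14 and 0.00237 in the edgeR fit). HCT116 cells thus had 10.1 times the *PDP1* level of PC3, 117 times that of A549 and 181 times that of T47D cells. The 3 nearest counted genes on each side were looked at after these values were seen. *TMEM67*, 38573 bases away, was at 52.1 ± 8.39 CPM in HCT116 cells and between 11.7 and 19.5 CPM in the others, and *RBM12B* was at 51.6 ± 16.6 CPM against 27.2 to 39.7 CPM. *TRIQK* ranged from 22.3 to 65.1 CPM, *GEM* from 1.86 to 11.7 CPM and *RAD54B* from 28.5 to 57.8 CPM over the lines. *CDH17*, 201094 bases away, was at 15.1 CPM in A549 cells and at most at 0.0556 CPM in the others, so that its range was wide as well, with another line the highest.

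*PDK1* in normoxia was highest in PC3 cells at 59.5 ± 9.33 CPM, followed by HCT116 (21.4 ± 5.26), T47D (13.1 ± 2.94) and A549 cells (5.65 to 8.60 in the 3 libraries), and each neighbouring pair differed (adjusted p between 3.941e-07 and 0.00107). The level in PC3 cells was 8.79 times that in A549 cells. *PDK4* was highest in A549 cells, by 6.34 times over HCT116 cells in the edgeR fit. As a ratio of mean CPM it was 6.60 times, and 4.32 times without normoxic replicate 1 of A549 cells. For *PDK4*, HCT116, PC3 and T47D cells did not differ from each other past the threshold. *PDK3* was highest in T47D cells at 30.8 ± 4.72 CPM, above A549, PC3 and HCT116 cells in that order, and neither A549 and PC3 nor PC3 and HCT116 cells differed past the threshold. *PDK2* was also highest in T47D cells, above PC3, HCT116 and A549 cells in that order, and PC3 and HCT116 cells did not differ past the threshold (adjusted p = 0.181). *PDP2* was highest in HCT116 cells at 33.0 ± 3.62 CPM, above each other line, and A549, PC3 and T47D cells did not differ from each other past the threshold.

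Among the subunits, *PDHA1* was highest in PC3 cells at 179 ± 31.1 CPM, above A549, T47D and HCT116 cells in that order, and each neighbouring pair differed. *DLAT* was highest in PC3 cells at 241 ± 10.6 CPM and lowest in A549 cells at 96.2 ± 7.21 CPM, while T47D and HCT116 cells between them did not differ past the threshold (adjusted p = 0.240). *PDHB* ranged less, from 85.7 ± 9.89 CPM in A549 to 145 ± 23.6 CPM in T47D cells. *BCKDK* was the gene for which a difference over the 4 lines did not pass (adjusted p = 0.0772), at 37.1 ± 5.48 CPM in HCT116 to 50.5 ± 6.67 CPM in A549 cells. As a pair these 2 lines differed (adjusted p = 0.0215), and *BCKDK* passed over the 4 lines without normoxic replicate 1 or 3 of T47D, normoxic replicate 1 of A549 or normoxic replicate 3 of HCT116 cells.

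The 4 kinases of pyruvate dehydrogenase were then set against each other per length, as the share of each in their summed CPM per kilobase. With the union of annotated exons as the length, the *PDK1* share went from 6.93% ± 2.85 to 25.3% ± 2.63 in A549 cells (SD, n = 3). It went from 19.5% ± 3.59 to 34.1% ± 3.39 in HCT116 and from 8.37% ± 3.08 to 35.0% ± 3.88 in T47D cells. In these 3 lines the ranges in normoxia and hypoxia did not overlap. In PC3 cells the share was 36.8% ± 4.49 in normoxia and 35.8% ± 1.52 in hypoxia. *PDK2* held the largest mean share in each of the 8 groups on this scale, from 39.0% in hypoxic A549 to 72.9% in normoxic T47D cells. With the coding length instead, *PDK1* held the largest share in PC3 cells in both states (53.7% and 51.4%) and in hypoxic HCT116 and T47D cells (46.4% and 46.3%), and *PDK3* in hypoxic A549 cells (40.5%). Which kinase was most abundant thus depended on the length used, since the annotated exons of *PDK1* span 14845 bases and those of *PDK2* 5471 bases. The direction of the *PDK1* share in A549, HCT116 and T47D cells did not depend on it.

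**Figure D4:**
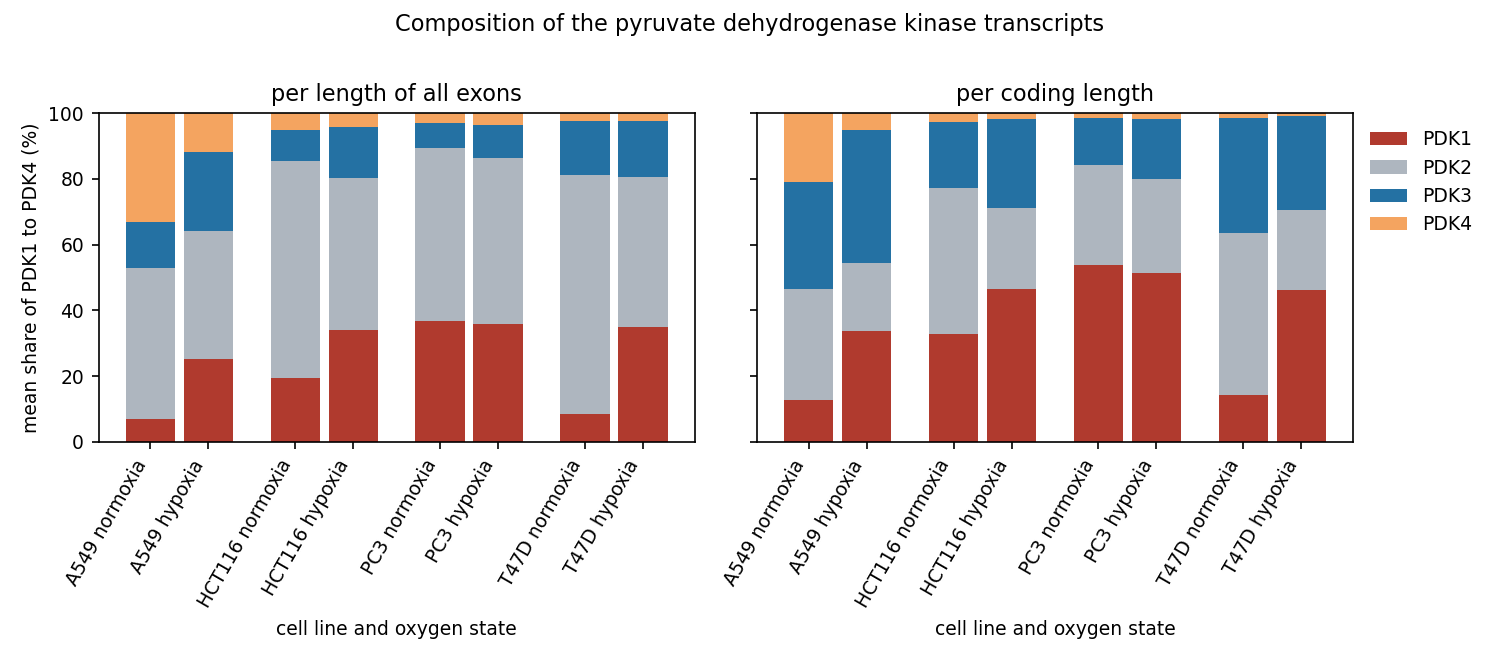
Mean share (%) of *PDK1* to *PDK4* in their summed level per length, in each cell line and oxygen state (3 libraries each). The left panel divides by the length of all annotated exons and the right panel by the coding length. The *PDK1* share grows in hypoxia in A549, HCT116 and T47D cells and is about level in PC3 cells on both scales, and the *PDK4* share is highest in A549 cells and at most 5.07% in the other lines.

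With the union of exons as the length, the summed level of *PDK1* to *PDK4* per kilobase was 0.264 ± 0.0495 times that of *PDHA1* in normoxia and 0.504 ± 0.0288 times in hypoxia in A549 cells, with non-overlapping libraries. It was 0.528 ± 0.0159 and 1.09 ± 0.0609 times in T47D cells, and 0.689 ± 0.142 and 1.09 ± 0.137 times in HCT116 cells. In PC3 cells it was 0.309 ± 0.0689 and 0.341 ± 0.00911 times, with overlapping libraries. With the coding length the ratios were larger, at 0.374 ± 0.0274 and 1.01 ± 0.0321 in A549, 0.828 ± 0.0321 and 2.21 ± 0.232 in T47D, 1.09 ± 0.244 and 2.15 ± 0.276 in HCT116 and 0.568 ± 0.145 and 0.637 ± 0.0190 in PC3 cells. The libraries again overlapped in PC3 cells alone, so that the size of the ratio, but not its direction, depended on the length. These ratios concern transcripts, and neither enzyme activity nor phosphorylation was measured.

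Other genes of the pathway were counted in lists. In the rest of the complex, *PDHX* (the E3-binding protein) and *DLD* (the E3 subunit) were downregulated in A549 and HCT116 cells. *DLD* had a log2 fold change of -0.49 ± 0.10 in A549 and -0.74 ± 0.20 in HCT116 cells (edgeR adjusted p = 0.00340 and 0.00838), and *PDHX* one of -0.59 and -0.51 (edgeR adjusted p = 0.00117 and 0.0342). In PC3 cells they were at -0.24 and -0.25 and in T47D cells at -0.44 and -0.34, without a call. *PDPR*, the regulatory subunit of the phosphatase, was upregulated in A549 cells, so that 1 rose and 2 fell of the 3 genes tested there (against 17.6% and 17.8% of all genes), and 0 rose and 2 fell in HCT116 cells (against 23.3% and 27.0%). DESeq2 and an unadjusted p under 0.05 with edgeR also gave 0 that rose in HCT116 cells. In PC3 and T47D cells edgeR and DESeq2 each called 0 of the 3. In PC3 cells *PDHX* and *DLD* passed on p (edgeR adjusted p = 0.0491 and 0.0479) and missed on the 1.2-fold change, and *PDPR* was higher at an unadjusted p under 0.05 alone. In T47D cells 0 of the 3 had an unadjusted p under 0.05.

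In the lactate branch, *LDHA*, which makes lactate from pyruvate, and *SLC16A3*, which exports it, were upregulated in all 4 lines. *LDHA* had a log2 fold change of 1.44 in A549, 1.91 in HCT116, 0.61 in PC3 and 3.05 in T47D cells, and *SLC16A3* one of 3.01, 1.86, 1.199 and 3.36. *LDHB* was downregulated in A549 cells (-0.34). It was at -0.35 in HCT116 and -0.23 in PC3 cells without a call, and was not tested in T47D cells. *SLC16A1* was called in no line by edgeR or DESeq2, nor was an unadjusted p under 0.05 reached. At the entry of pyruvate into mitochondria, *MPC1* and *MPC2*, the subunits of the pyruvate carrier, were downregulated in HCT116 cells with log2 fold changes of -1.72 ± 0.27 and -1.43 ± 0.22. *MPC1* was at -0.20 in A549, -0.35 in PC3 and -0.51 in T47D cells, without a call. *MPC2* was also downregulated in T47D cells (-1.38 ± 0.26). *PC*, which carboxylates pyruvate to oxaloacetate, was upregulated in A549, HCT116 and PC3 cells (1.14, 1.30 and 1.31) and not in T47D cells (0.28).

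Among related dehydrogenases, *BCKDHA*, the E1 alpha subunit of the branched-chain complex and the target of BCKDK, was upregulated in all 4 lines. Its log2 fold change was 1.27 in A549, 2.08 in HCT116, 0.42 in PC3 and 1.35 in T47D cells, the same order of lines as for *BCKDK*. The other branched-chain subunits, *BCKDHB* and *DBT*, were called in no line by edgeR or DESeq2, with an unadjusted p under 0.05 in 0 and 2 lines. *OGDH*, of the 2-oxoglutarate complex, was upregulated in HCT116 and PC3 cells (1.26 and 0.59), and was at 0.27 in A549 and 0.34 in T47D cells. Of the 7 genes of this list, those called numbered 1 of 6 tested in A549, 3 in HCT116, 3 in PC3 and 1 in T47D cells, and each was upregulated. The share of all genes upregulated was 17.6%, 23.3%, 16.6% and 6.55% in the same order.

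*LIAS*, which makes the lipoyl group that DLAT carries, was downregulated in A549, HCT116 and PC3 cells, with log2 fold changes of -0.71, -1.43 and -0.86, and was at -0.60 in T47D cells without passing. *LIPT1*, a lipoyl transferase, was downregulated in HCT116 and PC3 cells (-1.34 and -0.96), and was at -0.47 in A549 and -0.72 in T47D cells. *LIPT2*, the other gene of this list, was called in no line by edgeR or DESeq2, with an unadjusted p under 0.05 in 1 line. It was at 0.05 in A549, 0.01 in HCT116 and 0.20 in PC3 cells. Of the thiamine genes, which supply the E1 cofactor, *SLC19A2*, a thiamine transporter, was downregulated in HCT116 and PC3 cells (-0.56 and -0.47), and was at -0.19 in A549 and -0.27 in T47D cells without a call. Of 14 citric acid cycle genes, 0 rose and 5 fell in A549, 5 rose and 6 fell in HCT116, 1 rose and 1 fell in PC3, and 0 rose and 2 fell in T47D cells. The T47D counts of this and the other lists came from the fit without the replicate block. Among all genes tested, 17.6% rose and 17.8% fell in A549, 23.3% and 27.0% in HCT116, 16.6% and 15.7% in PC3, and 6.55% and 6.69% in T47D cells. The 0 increases compare with 3 in A549 and 1 in T47D cells at an unadjusted p under 0.05 with edgeR, and with 1 and 0 by DESeq2. *SUCLG1*, of succinyl-CoA ligase, was downregulated in A549, HCT116 and T47D cells (-0.47, -1.81 and -0.84), as was *IDH3A*, of isocitrate dehydrogenase (-0.52, -0.53 and -0.97). In PC3 cells they were at -0.43 and -0.21, without a call by edgeR, while DESeq2 called *SUCLG1* there.

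The genes whose pattern was most like that of *PDK1* were sought by the Pearson correlation of log2 CPM over the 24 libraries, with each line centred on its own mean, among 10879 genes. They were *TMEM45A* (r = 0.971), *PGK1* (r = 0.967) and *CA9* (r = 0.959). For *PDK3* they were *SLC2A1* (r = 0.975), *GPI* (r = 0.973) and *KCTD11* (r = 0.971), and for *PDHA1* they were *MFAP1* (r = 0.936), *LAS1L* (r = 0.933) and *HSP90AB1* (r = 0.931). The libraries share their oxygen state and line, so these values describe likeness and give no test.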

How the data were processed

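The sample labels gave the line, the oxygen level and the number of each replicate. The authors trimmed reads with Trim Galore 0.3.3, used HISAT2 2.05 to align them to GRCh37, dropped non-unique fragments (Picard 2.0.1) and counted UCSC genes with HTSeq 0.5.4p3 in intersection-strict mode. The deposited values are raw counts per gene symbol. The genes and lists described here were chosen with earlier results of these data known. Each of the 10 genes is named. From each pathway list the 2 genes tested in all lines with the lowest mean adjusted p are named with values, and other list genes are named where called, after their values were seen. Some genes of these lists are not reported here.

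Counts were tested with edgeR 4.0.16 in R 4.3.3 (filterByExpr, TMM normalization, glmQLFit and glmQLFTest), one line at a time, with Benjamini-Hochberg adjustment over all genes tested. A call needed a change of more than 1.2-fold and an adjusted p under 0.05. The interaction and the levels in normoxia came from one edgeR fit of all 24 libraries, and the mean over lines from an exact permutation test. Levels are CPM after TMM normalization over all libraries, with a prior count of 2 on the log2 scale. Lengths were taken from GENCODE 44 on GRCh37, in which 21589 of 23106 symbols matched. The scripts were tested on simulated data. PCR copies carry no molecular identifiers, so counting error is only part of the error.

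The alternatives were DESeq2 1.42.0, other scaling, other filters, a block for the replicate number, one fit of all libraries, stricter fold changes, omission of each library and, added after the data were seen, a correction for GC content and length and the coding length for shares and ratios. Deviations from the group mean of same-numbered normoxic and hypoxic libraries correlated at r of 0.147, 0.279 and 0.261 in T47D cells, all above 0.1, and were below 0.1 for at least 1 pair in each of the other lines. The replicate numbers were therefore taken to pair the libraries in T47D cells alone. For replicate 1 of T47D cells the 0.147 was close to the highest correlation with another number, 0.133.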

Additional observations from a re-analysis of the deposited data

Results flagged for a closer look

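The effect of hypoxia differed between the cell lines for 3 of the 10 genes, by the interaction in one edgeR fit of all 24 libraries. For *PDK1* (adjusted p = 3.492e-07), the log2 fold change was 2.64 in A549, 1.99 in HCT116, 3.35 in T47D and 0.11 in PC3 cells. For *PDK3* (adjusted p = 5.503e-04), it was 1.52, 1.93, 1.32 and 0.54 in the same order of lines. For *BCKDK* (adjusted p = 0.00140), it was 0.58, 1.49, 1.15 and 0.38. The *PDK3* interaction was lost without replicate 1 of each group and, together with that of *BCKDK*, without replicate 2 of each group. The *PDK1* interaction passed in each alternative.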

How the results depend on the processing

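Of the alternatives tried on the log2 fold change of each of the 10 genes in each line, 584 kept direction and side of the threshold, 45 lost a call, 31 gained one and 20 changed sign. Each of those 20 was for a gene not called in that line. With the correction for GC content and length, alone and with the replicate block, *DLAT* was at 0.0119 and 0.0135 in A549 and at 0.0230 and 0.0231 in PC3 cells, *PDHA1* at 0.0212 and 0.0362 in PC3, *PDK1* at -0.0279 and -0.0116 in PC3, *PDK2* at -0.102 and -0.101 in PC3 and *PDP1* at 0.0466 and 0.0378 in T47D cells. *PDHA1* in PC3 cells was at 0.0271 in one fit of all libraries, and *DLAT* in T47D cells at -1.263e-04 with scaling to total counts. Without one library, in PC3 cells *PDHA1* ranged from -0.146 to 0.0820, *PDK1* from -0.0050 to 0.242 and *PDP1* from -0.0879 to 0.108, and in T47D cells *PDP1* ranged from -0.323 to 0.0563. Scaling to total counts moved the median over all genes to -0.13 in A549 and -0.12 in T47D cells, against -0.01.

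The 1 downregulated gene of A549 cells became 3 with scaling to total counts (*PDHA1* at -0.35, adjusted p = 0.0136, and *PDHB* at -0.36, adjusted p = 0.0263, by edgeR), 0 in one fit of all libraries, 0 at a fold change over 1.5 and 0 in a test against 1.2-fold. The 2 of HCT116 cells became 1 with no filter, with a mean count of at least 50, at 1.5-fold and in the test against 1.2-fold. The 5 upregulated genes of A549 cells became 2 at 1.5-fold and 3 in the test against 1.2-fold. *PDP1* in A549 cells also lost its call with scaling to total counts (0.29, edgeR adjusted p = 0.0989). In one fit of all libraries *PDP1* lost this call too (0.41, edgeR adjusted p = 0.104). The 2 of PC3 cells became 1 in one fit, 0 at 1.5-fold, 1 in the test against 1.2-fold and 1 with the GC and length correction, alone or with the block. Genes with an interaction numbered 7 by DESeq2 against 3 by edgeR, while over all genes it was 4463 of 15079 against 2940 of 16089. Without one library, the genes downregulated numbered 0 to 2 in A549, 1 to 2 in HCT116 and 0 to 1 in PC3 cells, those upregulated 3 to 5 in A549, 4 to 5 in HCT116, 1 to 2 in PC3 and 2 to 4 in T47D cells, and those with an interaction 1 to 5, leaving out a replicate number of all groups included. The causes were not tested.

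With the replicate number as a block, 5 genes against 3 were upregulated in T47D cells, and 6 against 3 had an interaction, while over all genes 3691 against 2940 of 16089 did. In A549 cells 2 were downregulated against 1, with or without the correction, *PDK4* (-0.85, edgeR adjusted p = 0.00112) being the one added. In HCT116 cells *PDK4* (0.82, edgeR adjusted p = 0.0321) and *PDHA1* (0.51, edgeR adjusted p = 0.0291) also passed. In A549, HCT116 and PC3 cells the numbers were not taken as pairs, since the lowest same-number correlation was 0.0486, 0.0458 and 0.0707, although each library of PC3 cells, as of T47D cells, correlated best with its own number. The 3 libraries per group limit small changes, and *PDK4*, at 19 to 302 counts outside A549 cells, rested on the fewest reads.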
